A study of Homo sapiens with 6 samples.

Results

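The 9 genes described here, NRXN3, DAB1, LSAMP, LRP1B, PDE4D, CNTNAP2, CSMD1, DLG2 and PTPRD, are very long genes with known roles in the nervous system, read in a table of 56638 genes. They were listed by name, and several were taken for having the highest H3K27me3 counts after treatment with MAK683, so their H3K27me3 values are given below as a description. The cells were G401, a malignant rhabdoid tumor line kept in culture, and all libraries came from this 1 line. Groups were defined by treatment and antibody. Control cells received DMSO and treated cells received 3 µM MAK683, a PRC2 inhibitor that binds EED, each for 3 days, and from both came H3K27me3 ChIP, H3K4me3 ChIP and input, which is chromatin sequenced without antibody. There was 1 library per treatment and antibody, 6 in all, so no comparison below has a replicate check and no p-value is given. In the ranking of all genes by H3K27me3 counts in MAK683, NRXN3, DAB1, LSAMP, LRP1B and PDE4D held ranks 1 to 5, CSMD1 was at 11, CNTNAP2 at 13, PTPRD at 14 and DLG2 at 48. Just inside the upper group stood PDE4D with 19830 counts, and just outside it CTNNA3, which encodes an alpha-catenin, with 19422 and ASIC2, which encodes an acid-sensing ion channel, with 18062.

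H3K27me3 is the trimethylation of lysine 27 of histone H3 that PRC2 writes through its EZH1 or EZH2 subunit, and it covers genes kept silent during development, often as broad domains. H3K4me3 marks the start sites of genes that are active or poised, most often at CpG-rich promoters, and occupies a narrow window next to the span of a long gene. Very long genes are common among those of neurons, where they encode adhesion molecules, receptors and scaffolds of the synapse. Much of their length is intron, and many of them use several start sites that lie far apart.

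The members are adhesion molecules, receptors, signaling proteins and a scaffold. NRXN3 encodes a neurexin, a presynaptic adhesion receptor. CNTNAP2 encodes CASPR2, a neurexin relative that holds potassium channels beside the node of Ranvier, LSAMP a GPI-anchored IgLON adhesion protein of the limbic system, and PTPRD a receptor tyrosine phosphatase that organizes synapses. CSMD1 encodes a large membrane protein with CUB and sushi domains. LRP1B encodes an LDL receptor family member that takes up ligands, and DAB1 encodes the adaptor that carries the reelin signal to migrating neurons. DLG2 encodes PSD-93, a scaffold beneath the postsynaptic membrane, and PDE4D a phosphodiesterase that breaks down cAMP.

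On GRCh37, the build of the deposited counts (hg19), the annotated spans ran from 1337 kb for LSAMP to 2305 kb for CNTNAP2. NRXN3 lies at chr14:78636716-80334634 on the plus strand, and CNTNAP2 at chr7:145813094-148118090, also on the plus strand. The other members lie on the minus strand, DAB1 at chr1:57460451-59012406, LSAMP at chr3:115521221-116858236, LRP1B at chr2:140988992-142888585, PDE4D at chr5:58264865-59817947, DLG2 at chr11:83166055-85339379 and PTPRD at chr9:8314246-10613002. Each is on a chromosome of its own. CNTNAP2, PTPRD, DLG2 and CSMD1 ranked 2, 3, 4 and 5 by span among 302 autosomal protein-coding genes of at least 500 kb, hereafter very long genes, and the other 5 members ranked between 8 and 28. Their GC content, from 34.8% in LRP1B to 40.8% in DAB1, surrounded the median of the very long genes (38.3%) and lay below that of all genes tested (44.1%).

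RefSeq start-site windows, 300 bases long with 250 before and 50 after the start, were given for 7 of the members, namely all but LRP1B and CSMD1, and all 31 windows matched GRCh37 once. The motif searched was CG, which reads the same on both strands, and 96% of the 35116 windows in the table hold at least 1. A window was called CpG-rich where the observed over expected CpG ratio was at least 0.6 and the GC content at least 50%, which was met by 11 of the 31 windows of the members and by 46.9% of all windows. The windows of the members held 2 CG (at 3 starts of PDE4D) to 48 CG (at 1 start of DAB1). The 4 windows below show the contrast between 2 starts of NRXN3, the start of CNTNAP2 and the upstream start of PTPRD, with every CG in capitals and the sequence 5′ to 3′ on the strand of the gene. The upstream start of NRXN3, at chr14:78636466-78636765 on the plus strand, holds 5 CG, and its internal start, 1109 kb further in at chr14:79745473-79745772, holds 30. The start of CNTNAP2 at chr7:145813643-145813942 on the plus strand holds 16, near the table's median of 14. The upstream start of PTPRD at chr9:10612953-10613252 on the minus strand holds 40. Internal starts of PTPRD, 1834 and 1879 kb further in and not shown, hold 4 and 7.
NRXN3 upstream start: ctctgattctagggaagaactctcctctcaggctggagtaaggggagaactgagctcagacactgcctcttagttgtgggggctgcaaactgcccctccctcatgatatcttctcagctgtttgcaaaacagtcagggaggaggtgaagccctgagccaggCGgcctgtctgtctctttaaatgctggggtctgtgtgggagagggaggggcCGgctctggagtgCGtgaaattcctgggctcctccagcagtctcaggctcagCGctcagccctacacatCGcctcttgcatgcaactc
NRXN3 internal start: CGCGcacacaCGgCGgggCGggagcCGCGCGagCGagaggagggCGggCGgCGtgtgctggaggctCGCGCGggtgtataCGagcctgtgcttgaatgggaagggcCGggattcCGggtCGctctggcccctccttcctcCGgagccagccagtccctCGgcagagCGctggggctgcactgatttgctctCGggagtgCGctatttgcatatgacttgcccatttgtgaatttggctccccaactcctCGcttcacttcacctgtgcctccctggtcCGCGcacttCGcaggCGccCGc
CNTNAP2 start: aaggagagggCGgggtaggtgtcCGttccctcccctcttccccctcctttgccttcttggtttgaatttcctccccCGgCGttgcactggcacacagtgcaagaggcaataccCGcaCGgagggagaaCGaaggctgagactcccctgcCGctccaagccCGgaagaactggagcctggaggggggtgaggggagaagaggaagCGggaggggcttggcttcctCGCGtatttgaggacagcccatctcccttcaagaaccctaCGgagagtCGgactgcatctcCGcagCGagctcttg
PTPRD start: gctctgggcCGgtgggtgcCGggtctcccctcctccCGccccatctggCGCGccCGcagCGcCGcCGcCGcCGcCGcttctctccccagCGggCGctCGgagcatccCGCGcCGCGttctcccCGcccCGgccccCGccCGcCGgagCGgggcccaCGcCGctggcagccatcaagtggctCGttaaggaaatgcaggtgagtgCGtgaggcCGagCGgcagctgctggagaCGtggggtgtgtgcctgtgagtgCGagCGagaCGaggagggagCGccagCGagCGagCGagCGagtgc
The deposited counts cover whole genes, so they do not separate these windows from the bodies around them.

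The libraries held between 13308099 and 21281877 counts, and the H3K27me3 library of MAK683 was the smallest, with 0.694 times the counts of the DMSO library. The Drosophila spike-in that the study used is not carried by the deposited counts, so every value below is relative to the rest of its library and cannot show how much H3K27me3 was lost in all. Each modification was therefore divided by input of the same treatment in CPM, that is, with every library scaled to the same total, and with 0.05 CPM added to both, and given as a log2 ratio, in which 0 is the level of input. A background of 21263 genes, each with 100 or more input counts summed over DMSO and MAK683, was treated the same way. The 95% intervals cover counting error only. SMARCB1, the gene whose loss defines this tumor, had 0 input counts in both treatments.

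Input followed the length of the members, and 8 of them had between 10.8 and 12.2 DMSO input counts per kb of span not shared with another gene, against a median of 11.6 over the very long genes. LSAMP had 17.7, above the range from 7.69 to 14.3 that holds the central 90% of very long genes. The annotation used for counting is not named, and the span counted for LSAMP may differ from the one used here. The ratios to input below divide out a difference in counts per kb. If the counted span of LSAMP differs, its ratios describe that span and not the coordinates given above. This was not tested. By input counts alone, CNTNAP2, PTPRD, DLG2, CSMD1 and LSAMP ranked 1 to 5 of all genes in DMSO.

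The raw counts already placed the members in separate groups. Among the receptors and adhesion proteins, NRXN3 went from 33159 H3K27me3 counts in DMSO to 20649 in MAK683, beside 16878 and 19537 in input and 10407 and 10147 in H3K4me3. LSAMP had 31514 and 20259 H3K27me3 counts, 22700 and 25404 input counts and 20275 and 17840 H3K4me3 counts. LRP1B had 31183 and 19925 H3K27me3 counts, 20419 and 23721 input counts and 10923 and 9963 H3K4me3 counts. In these 3 genes H3K27me3 was the highest of the DMSO libraries.

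CNTNAP2 went from 17361 to 17331 H3K27me3 counts, with 25752 and 29794 in input and 22025 and 24239 in H3K4me3. CSMD1 had 19579 and 17629 H3K27me3 counts, 22728 and 27240 input counts and 20103 and 22413 H3K4me3 counts. PTPRD had 22180 and 16464 H3K27me3 counts, 24851 and 28691 input counts and 15528 and 15434 H3K4me3 counts. Here input was the highest library in both treatments, and CNTNAP2 kept its H3K27me3 count although the whole library was smaller.

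Of the signaling and scaffold genes, DAB1 went from 32001 to 20460 H3K27me3 counts, with 15794 and 19159 input counts and 10617 and 11288 H3K4me3 counts. PDE4D had 31532 and 19830 H3K27me3 counts, 17489 and 20187 input counts and 11117 and 10842 H3K4me3 counts. DLG2 had 15714 and 11909 H3K27me3 counts, 24197 and 26975 input counts and 16981 and 16220 H3K4me3 counts. DAB1 and PDE4D resembled NRXN3, and DLG2 had the fewest H3K27me3 counts of the 9 genes in both treatments.

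**Figure D1:**
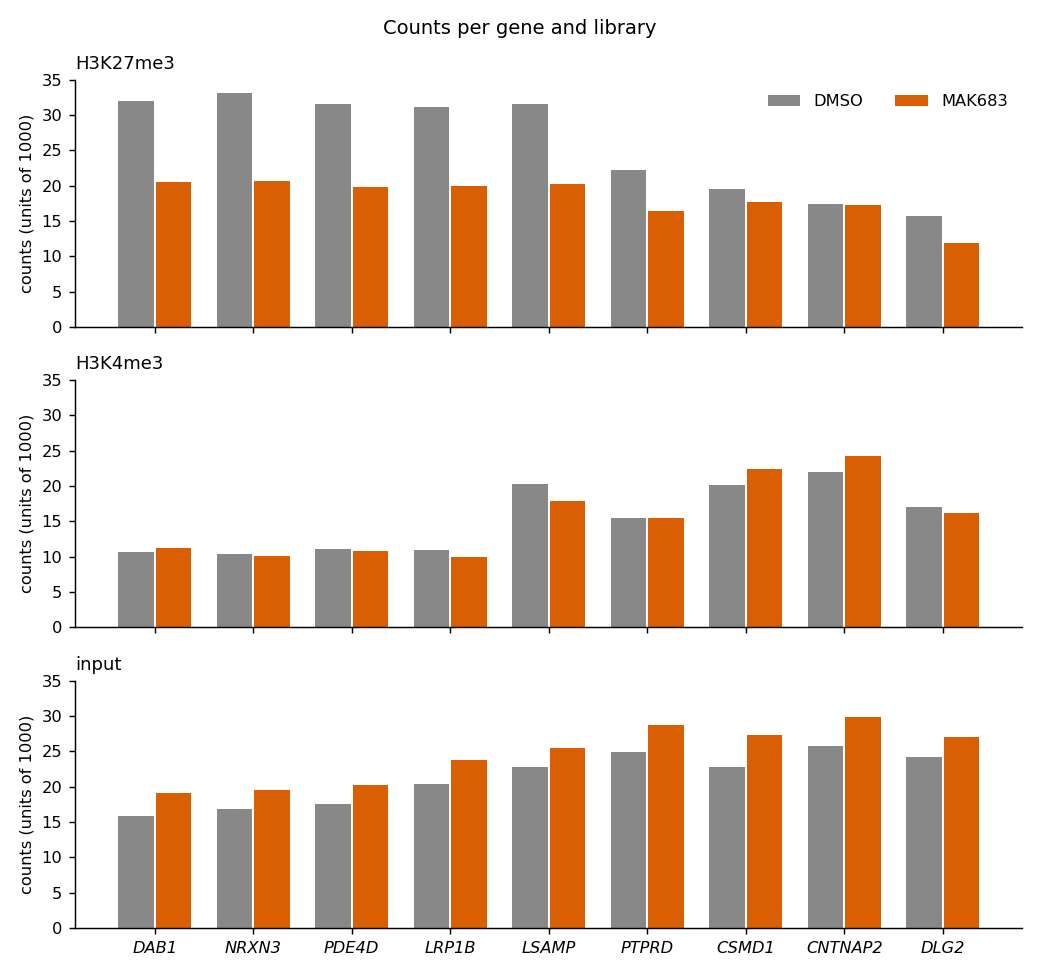
Counts per gene in each of the 6 libraries (axis in units of 1000 counts) for the 9 members ordered by H3K27me3 over input in DMSO, with 1 bar per library (DMSO gray, MAK683 orange) and 3 panels for H3K27me3, H3K4me3 and input. The 5 genes on the left had 31183 to 33159 H3K27me3 counts in DMSO, and the H3K27me3 bars of CNTNAP2 are level between treatments.

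Because several members were picked on H3K27me3 counts, their ratios to input only describe them. In CPM, 5 of the 9 genes were above input. NRXN3, DAB1, LSAMP, LRP1B and PDE4D were above input in H3K27me3 in both treatments, as were 27.3% of all genes in DMSO and 28.5% in MAK683. CNTNAP2, CSMD1, DLG2 and PTPRD were below input in both treatments in CPM, but with median-of-ratios scaling CSMD1 and PTPRD came out above input in both and CNTNAP2 above it in MAK683. This scaling raises the median of all genes by 0.59 in DMSO and 0.41 in MAK683 on the log2 scale. The order of the members and the gaps between them do not depend on the scaling, and sides of input given below are those in CPM. The high H3K27me3 counts of CNTNAP2, CSMD1 and PTPRD thus stood beside still higher input counts.

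In DMSO, log2 H3K27me3 over input was highest at DAB1 (0.83, 95% interval 0.80 to 0.86) and NRXN3 (0.79, 0.76 to 0.81). PDE4D followed with 0.66, LRP1B with 0.42 and LSAMP with 0.29. PTPRD had -0.35, CSMD1 -0.40, CNTNAP2 -0.76 and DLG2 -0.81. Neighbors in this order differed by more than their counting error, the closest being NRXN3 and DAB1, PTPRD and CSMD1, and CNTNAP2 and DLG2, with gaps between 0.044 and 0.054. Against all genes, DAB1 stood at percentile 86.1 and LSAMP at 76.7, while CNTNAP2 at 49.8 and DLG2 at 45.6 were at the middle of the genome.

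In MAK683, DAB1 (0.65, 0.62 to 0.68) and NRXN3 (0.63, 0.60 to 0.66) were again highest, and their gap of 0.015 no longer exceeded counting error. PDE4D had 0.53, LRP1B 0.30 and LSAMP 0.23. CSMD1 had -0.076, CNTNAP2 -0.23, PTPRD -0.25 and DLG2 -0.63. CNTNAP2 and PTPRD, which were 0.40 apart in DMSO, differed by 0.020 with an interval from -0.019 to 0.058. The percentiles among all genes moved little for most members, with DAB1 at 85.6, LSAMP at 76.5 and DLG2 at 45.3, but CNTNAP2 rose to 64.8.

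At a threshold of 1.5-fold, NRXN3, DAB1 and PDE4D were above input in DMSO, 3 of 9 members beside 18.4% of all genes, and CNTNAP2 and DLG2 were below it, 2 of 9 beside 59.0%. In MAK683, NRXN3 and DAB1 remained above by this measure (background 15.8%) and DLG2 remained below (background 48.4%). Since the members were taken in part for H3K27me3 counts, nothing is read from these counts of members.

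The difference between treatments had opposite signs in the 2 groups. Log2 H3K27me3 over input was lower in MAK683 at NRXN3 (-0.16, -0.19 to -0.12), DAB1 (-0.19, -0.22 to -0.15), PDE4D (-0.14), LRP1B (-0.12) and LSAMP (-0.061, -0.097 to -0.025). It was higher at CNTNAP2 (0.53, 0.49 to 0.56), CSMD1 (0.33, 0.29 to 0.37), DLG2 (0.18, 0.14 to 0.22) and PTPRD (0.10, 0.064 to 0.14), although with median-of-ratios scaling DLG2 and PTPRD turned to slightly lower values, -0.0040 and -0.084. In the counts as deposited, all 9 genes were lower in MAK683. The direction was thus lower at 5 of 9 members, beside 40.0% of all genes, and higher at 4, beside 60.0%.

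Relative to the median difference over all genes, which was 0.098, CNTNAP2 lay 0.43 higher and CSMD1 0.23 higher. DLG2 was 0.084 above the median and PTPRD 0.0040, so PTPRD moved as the typical gene did. LSAMP lay 0.16 below it and DAB1 0.28 below it. No member passed 1.5-fold in this difference, where 9.12% of all genes were higher and 4.41% lower, and CNTNAP2 was closest with a 1.44-fold difference. The share of H3K27me3 counts found in MAK683 was 50.0% at CNTNAP2 (exact Clopper-Pearson interval 49.4% to 50.5%) and 47.4% at CSMD1 (46.9% to 47.9%). It was between 38.4% and 39.1% at the 5 genes above input, and a gene that followed its library would have had 41.0%.

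**Figure D2:**
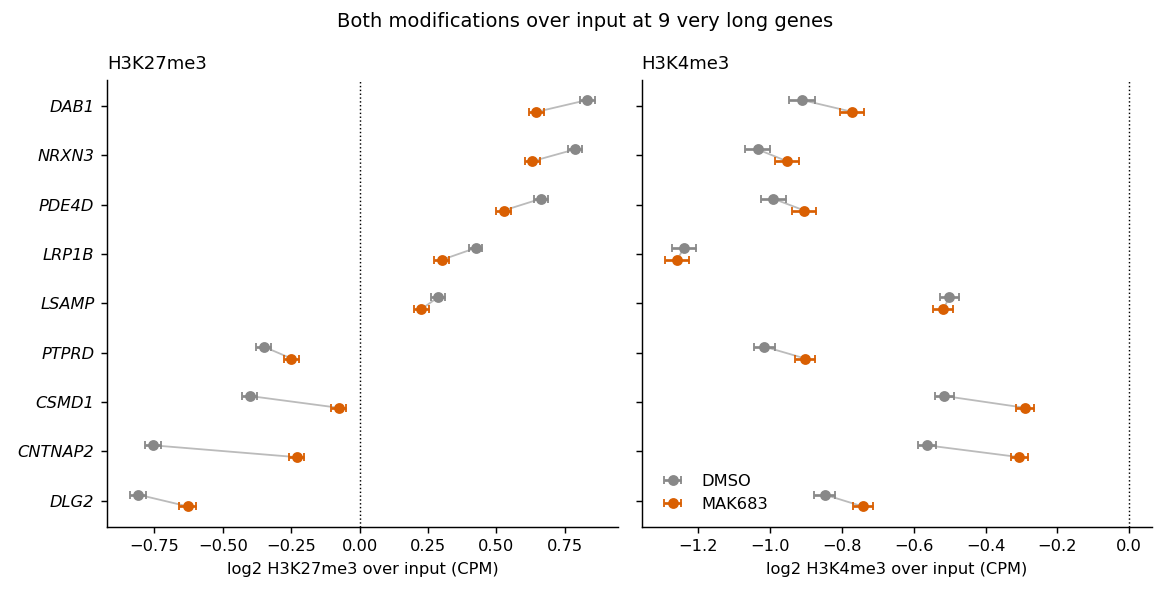
Log2 of H3K27me3 (left) and H3K4me3 (right) over input in CPM at the 9 members, with DMSO in gray, MAK683 in orange and bars for the 95% counting interval, 1 library each. The H3K27me3 points of 5 genes lie right of input (dotted line at 0) and move left in MAK683, those of 4 genes lie left of it and move right, and CNTNAP2 moves furthest.

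The members therefore lay closer together after MAK683. The range of log2 H3K27me3 over input went from 1.64 in DMSO to 1.27 in MAK683 with DAB1 and DLG2 at its ends in both, a difference of -0.37 (-0.43 to -0.31), and the SD over the 9 genes went from 0.66 to 0.45. The gap between CNTNAP2 and DLG2 did the reverse. It was 0.054 (0.014 to 0.094) in DMSO and 0.40 (0.36 to 0.44) in MAK683, a widening of 0.34 (0.29 to 0.40). CSMD1 and PTPRD, 0.051 apart with PTPRD higher in DMSO, were 0.17 apart with CSMD1 higher in MAK683. NRXN3 and DAB1, 0.044 apart in DMSO, did not move apart, with a difference of 0.030 (-0.026 to 0.085) between their gaps.

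H3K4me3, which the choice of members did not use, was below input at all 9 genes in both treatments. Above input were 43.8% of all genes in DMSO and 45.8% in MAK683. The very long genes were low as a group, with 1.99% of them above input in DMSO and 4.30% in MAK683, so the level at the members is shared with genes of this length. LSAMP had the highest log2 H3K4me3 over input in DMSO, -0.50, and CSMD1 with -0.51 did not differ from it beyond counting error. CNTNAP2 had -0.56, DLG2 -0.85, DAB1 -0.91, PDE4D -0.99, PTPRD -1.02, NRXN3 -1.04 and LRP1B -1.24. PTPRD and PDE4D each lay within counting error of NRXN3.

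Below input by at least 1.5-fold in H3K4me3 were NRXN3, DAB1, LRP1B, PDE4D, DLG2 and PTPRD, 6 of 9 in each treatment, beside 37.2% of all genes in DMSO and 29.4% in MAK683. No member was above input by as much, beside 31.6% and 30.4%. Low H3K4me3 did not go with high H3K27me3 throughout. PTPRD was below input in both modifications, and LSAMP in DMSO combined H3K27me3 above input with the highest H3K4me3 of the members, within counting error of CSMD1.

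In MAK683, log2 H3K4me3 over input was -0.29 at CSMD1, -0.31 at CNTNAP2 and -0.52 at LSAMP. DLG2 had -0.74, DAB1 -0.77, PTPRD and PDE4D -0.90 each, NRXN3 -0.95 and LRP1B -1.26. CSMD1 and CNTNAP2 were within counting error of each other and had passed LSAMP. The gap between CSMD1 and LSAMP went from -0.014 to 0.23 (0.19 to 0.27).

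The difference in H3K4me3 over input between treatments was largest at CNTNAP2 (0.26, 0.22 to 0.29) and CSMD1 (0.23, 0.19 to 0.26), the same genes that led in H3K27me3. It was 0.14 at DAB1, 0.11 at PTPRD and DLG2, 0.087 at PDE4D and 0.082 at NRXN3. At LSAMP (-0.017, -0.056 to 0.022) and LRP1B (-0.019, -0.067 to 0.028) the interval included 0. The difference was positive at 7 of 9 members, beside 52.2% of all genes and 89.1% of the very long genes, whose median of 0.13 was close to that of the members (0.11). With median-of-ratios scaling NRXN3, PDE4D, DLG2 and PTPRD turned to between -0.0078 and -0.039. None passed 1.5-fold, where 4.91% of all genes were higher and 3.60% lower. Both ratios use the same 2 input libraries, so a shift in input would move both modifications at a gene together. Input of CNTNAP2 in CPM differed by -0.0025 on the log2 scale between treatments, and that of CSMD1 by 0.048. Whether input contributed to the differences in the modifications was not tested.

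The pattern of the members was next set beside all 302 very long genes. In DMSO, 169 of these were above input in H3K27me3 and 133 below. Of the 169, 148 were lower in MAK683 and all stayed above input, with a median log2 value of 0.59 in DMSO and 0.47 in MAK683. Of the 133, 124 were higher in MAK683, and the median went from -0.77 to -0.33. The same held among the 66 genes of at least 1000 kb, where 30 of 34 genes above input were lower and all 32 below it were higher. The DMSO value enters both the grouping and the difference, and the directions are those in CPM.

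The members thus followed the side of input on which they stood, as most genes of their length did. Ranked by the H3K27me3 difference among the 302 genes, CNTNAP2 was at 16, CSMD1 at 51 and DAB1 at 268. No member was at an end of the class in level. After MAK683, the highest log2 H3K27me3 over input of a very long gene was 1.41 at PLXNA4, a semaphorin co-receptor, followed by SH3RF3 with 1.29 and KALRN, a guanine nucleotide exchange factor of dendritic spines, with 1.20. The lowest values were -0.96 at SLC8A1, a sodium and calcium exchanger, -0.95 at GLIS3 and -0.90 at CDKAL1. Across the 302 genes, Spearman's rho between DMSO and MAK683 H3K27me3 over input was 0.98, as a description over genes that share the same libraries. H3K27me3 and H3K4me3 over input had a rho of -0.39 in DMSO. GC content had a rho of 0.64 with H3K4me3 and 0.14 with H3K27me3, and span had 0.83 with DMSO input counts and 0.53 with MAK683 H3K27me3 counts.

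**Figure D3:**
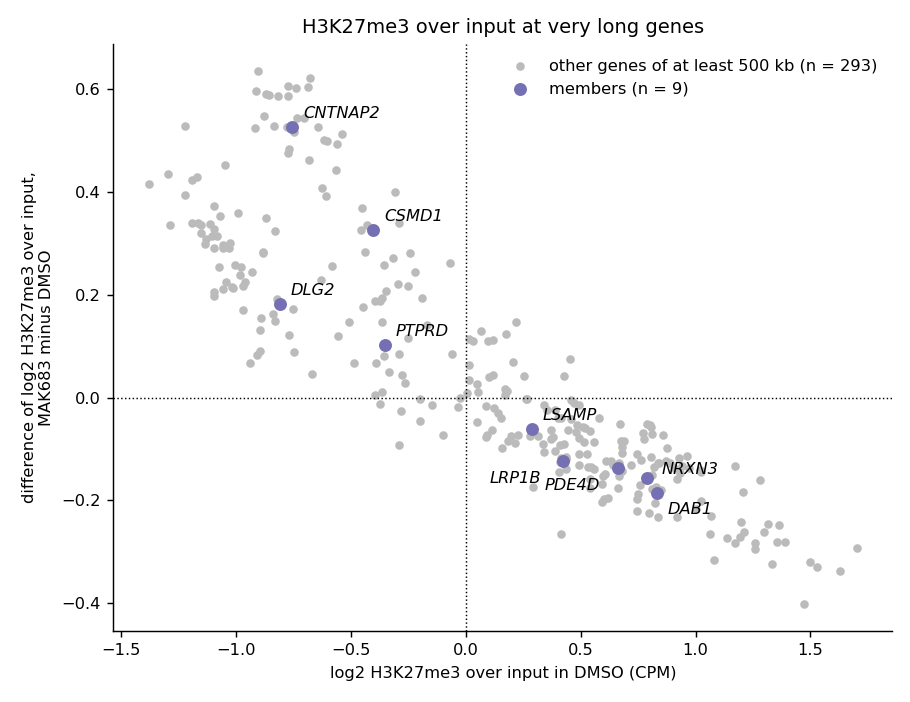
Difference of log2 H3K27me3 over input between MAK683 and DMSO (vertical) against its DMSO value (horizontal) for the 302 very long genes, 1 point per gene, with the 9 members in purple. Genes right of 0 lie mostly below the horizontal line and genes left of 0 mostly above it, and CNTNAP2 at 0.53 stands well above DLG2 at 0.18 although both start near -0.8.

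CNTNAP2 and DLG2 began at nearly the same H3K27me3 over input and ended apart, so the very long genes that started within 0.1 of either were listed, a window chosen after the values were seen. It held 35 genes, all of them higher in MAK683 in CPM, by 0.046 (SUGCT) to 0.64 (SOX5), and only NCAM2 and NAALADL2 lay between 0.3 and 0.4. With median-of-ratios scaling DLG2 turned to -0.0040. That scaling shifts every gene alike, so genes with smaller differences than DLG2 turn lower as well. CNTNAP2 was among 19 genes at or above 0.4, with its paralog CNTNAP5 (0.60), the adhesion molecule DSCAM (0.60), the neuronal splicing factor RBFOX1 (0.60), MACROD2 (0.59), the netrin receptor UNC5D (0.59), the glutamate receptor GRM7 (0.54) and the neuregulin NRG3 (0.48). DLG2 was among 14 genes at or below 0.3, with the Hippo kinase STK3 (0.17), CSMD3 (0.15), a relative of CSMD1, CAMTA1 (0.12) and ZFHX3 (0.083). The lower group also held TENM4 (0.28) and RIMS2 (0.28), and the upper group CNBD1 (0.59), PTPRM (0.54) and STPG2 (0.46). No division by gene function is read from these names. The genes besides the ends of the range were named after their values were seen.

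**Figure D4:**
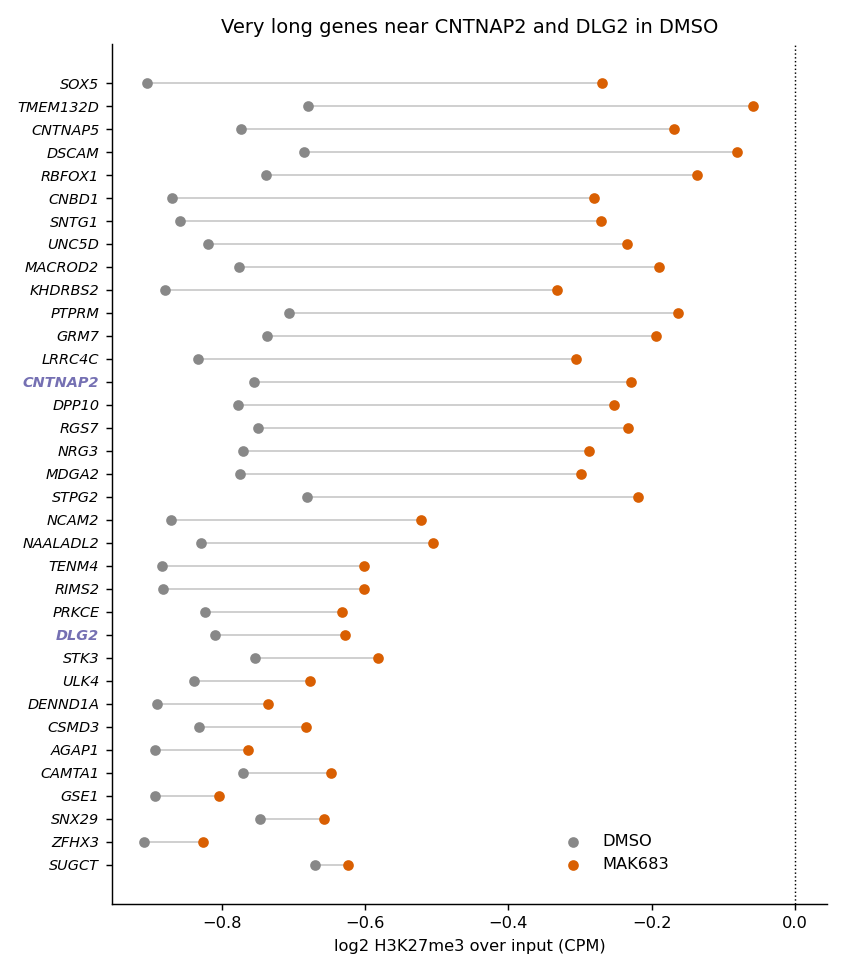
Log2 H3K27me3 over input in CPM in DMSO (gray) and MAK683 (orange) for the 35 very long genes that started within 0.1 of CNTNAP2 or DLG2 (both in bold), ordered by the difference. The upper 19 genes, CNTNAP2 included, differ by at least 0.4, and the lower 14, DLG2 included, by at most 0.3.

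Genes inside and beside the members were read for position. The annotation places 47 other genes of the table over the spans of the members, of which 43 had no input counts and 1 reached the minimum for measurement. This was PART1, a noncoding RNA gene at the 5′ end of PDE4D on the opposite strand, with a log2 H3K27me3 over input of -0.13 in DMSO and 0.14 in MAK683 from 363 and 263 counts. Only 43.7% of the span of PART1 is not shared with another annotated gene, and that part lies outside PDE4D. The counts of PART1 may therefore not come from inside PDE4D. PDE4D itself had 0.66 and 0.53.

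The nearest measured protein-coding gene on each side was on the same side of input as its member for 12 of 18 flanks, in DMSO as in MAK683. Of the flanks, 10 were above input in each treatment, beside 27.3% of all genes in DMSO and 28.5% in MAK683. Because most genes were below input, nothing is read from the count of flanks that shared a side. Both flanks of LSAMP were above input like LSAMP itself, GAP43, a growth cone protein 80.9 kb away, with 1.34 in DMSO and 0.91 in MAK683, and IGSF11 with 0.87 and 0.83. Both flanks of LRP1B, NXPH2 and KYNU, were above input as well, with 0.99 and 0.69 in DMSO, though 1451 and 747 kb away. Both flanks of DLG2 were below it, CCDC90B with -1.27 and TMEM126B, whose start lies 0.238 kb from that of DLG2, with -1.50 and only 55 H3K27me3 counts. The H3K4me3 value of TMEM126B was 2.10, beside -0.85 at DLG2. These counts cover whole genes of 7.97 kb and 2173 kb, so they do not compare the starts of the genes.

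DAB1, NRXN3 and PDE4D each had 1 flank on either side of input. C8B, a complement gene 20.4 kb from DAB1, had 0.95 in DMSO and 0.58 in MAK683, while MYSM1, a histone deubiquitinase gene 96.7 kb away, had -1.28 and -0.65. DIO2 beside NRXN3 had 0.88 and 0.60, and ADCK1 -0.90 and -0.69. Only 7.3% of the span of DIO2 is not shared with other annotated genes, and its input counts were 157 and 209. RAB3C, a vesicle GTPase gene beside PDE4D, had 0.77 and 0.52, and DEPDC1B -1.12 and -0.65. The flank below input was the same gene in both treatments.

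Next to CNTNAP2, at its higher coordinate side, C7orf33 went from 0.51 to 0.22. Its span is fully shared with other genes in the annotation used here, yet it had 300 and 349 input counts. The annotation used for counting may differ at this gene. CSMD1, at chr8:2792875-4852494 on the minus strand, lay between MYOM2, with 0.47 and 0.29, and MCPH1, with -1.03 and -0.80. PTPRD lay between TMEM261, with -0.49 and -0.15, and TYRP1, with 0.42 and 0.58.

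**Figure D5:**
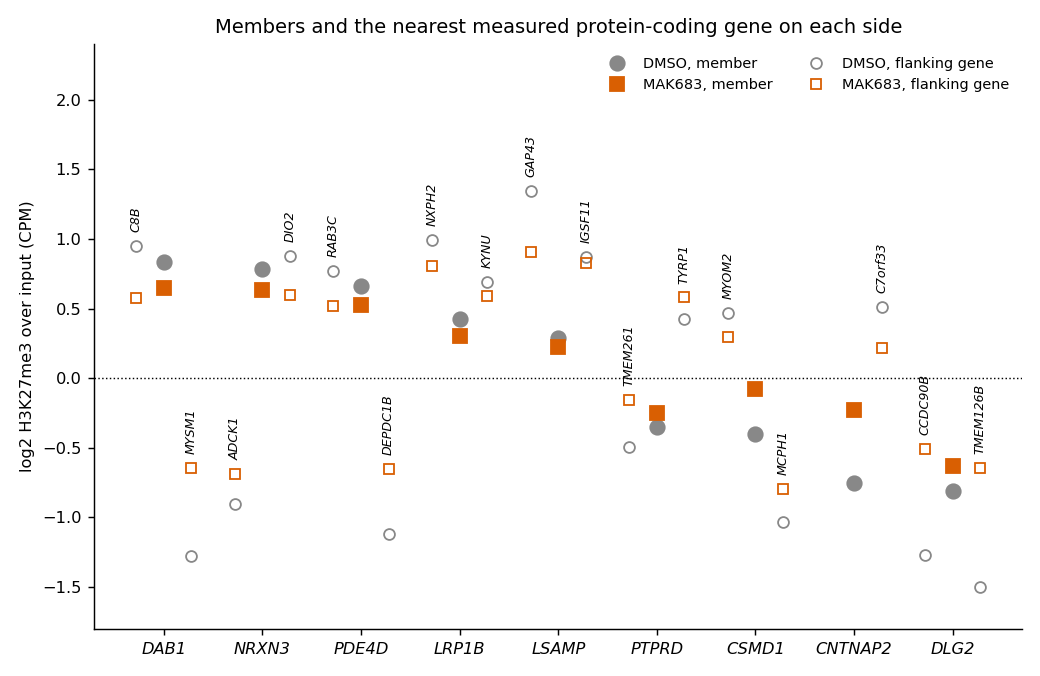
Log2 H3K27me3 over input at each member (filled) and at the nearest measured protein-coding gene on its lower and higher coordinate side (open, named), with DMSO as gray circles and MAK683 as orange squares. LSAMP and LRP1B lie between genes above input, DLG2 between genes below it, and DAB1, NRXN3, PDE4D, CSMD1 and PTPRD have 1 flank on each side of the dotted line. CNTNAP2 is drawn with its higher coordinate flank only.

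The families of the members were then described from fixed lists of genes. Of 27 measured genes in a list of family relatives, 11 were above input in H3K27me3 in DMSO and 11 in MAK683, beside 27.3% and 28.5% of all genes. The median of the list was -0.69 and -0.64, beside -0.75 and -0.56 over all genes tested. The highest in MAK683 were CSMD2 (1.07), the endocytic receptor gene LRP2 (0.97) and RELN (0.85), which encodes the reelin ligand upstream of DAB1 and is no paralog of a member. The lowest were PDE4A (-1.06), the reelin receptor gene VLDLR (-0.98) and CNTNAP3 (-0.98), which has near-identical copies and whose counts are uncertain. CNTNAP5 was the only gene of this list to differ by 1.5-fold in H3K27me3 between treatments, being higher in MAK683 (0.60), and none did so in H3K4me3. Of all genes, 9.12% were higher and 4.41% lower in H3K27me3 by as much.

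Families differed in how alike their members were, and the genes of this paragraph were named after their values were seen. All IgLON genes were above input in both treatments, with LSAMP at 0.29 and 0.23, OPCML at 0.89 and 0.76, NEGR1 at 0.41 and 0.28, IGLON5 at 0.28 and 0.31 and NTM at 0.12 and 0.16. The neurexin gene NRXN2 had -0.39 and -0.46, beside 0.79 and 0.63 at NRXN3. CNTNAP4 with 0.76 and 0.62 stood apart from CNTNAP2 and from CNTNAP5, which had -0.77 and -0.17. CSMD2 had 1.32 in DMSO, CSMD1 -0.40 and CSMD3 -0.83, so the sushi family spanned more than the 9 members together. PDE4B had 0.59 and 0.39 like PDE4D, while PDE4C had -1.05 and -0.84. Every measured DLG gene was below input in both treatments, with DLG1 at -1.13 and DLG3 at -0.41 in DMSO, and the phosphatases PTPRF and PTPRS were below input like PTPRD, with -0.69 and -0.83.

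Among 35 measured synaptic adhesion partners, 16 were above input in H3K27me3 in DMSO and 17 in MAK683, with medians of -0.038 and -0.054. Of all genes, 27.3% and 28.5% were above input in these treatments. SLITRK1 (2.01) and SLITRK3 (1.75), postsynaptic partners of receptor phosphatases such as PTPRD, and LRFN2 (1.22) were highest in MAK683, and NLGN3 (-0.91), LPHN1 (-0.88) and LRFN3 (-0.88) were lowest. Higher in MAK683 by 1.5-fold were 4 of the 35 genes, near the 9.12% of all genes, and none was lower, beside 4.41%. These were SLITRK2 (1.37, from 40 and 37 H3K27me3 counts over 63 and 37 input counts), SLITRK4 (0.65, from 55 and 70 H3K27me3 counts), IL1RAPL1 (0.59) and CNTN5 (0.59). The last 2, which span 1369 and 1338 kb, were below input in DMSO with -0.86 and -0.91, close to CNTNAP2 in level and in difference. In H3K4me3, SLITRK3 (0.84, from 85 and 158 counts) and SLITRK2 (0.69, from 76 and 58 counts) were higher by 1.5-fold, beside 4.91% of all genes. At SLITRK2 the H3K4me3 count was lower in MAK683, and the ratio was higher because input went from 63 to 37 counts.

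Of 14 measured genes of the reelin pathway, in which DAB1 acts, 3 were above input in each treatment. This was near the share of all genes, 27.3% in DMSO and 28.5% in MAK683, and the medians were -0.98 and -0.85. Above input were the kinase gene FYN (1.01 in MAK683), RELN (0.85) and the adaptor gene NCK2 (0.43). SOCS7 (-1.15), CDK5R1 (-1.03) and SRC (-1.01) were lowest, and CRKL was higher in MAK683 by 0.75, from -1.40 to -0.65. DAB1 at 0.65 would have stood between RELN and NCK2 in this list.

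Postsynaptic scaffolds and receptors, the partners of DLG2, had 6 of 21 genes above input in each treatment and medians of -0.66 and -0.68. This was near the share of all genes above input, 27.3% in DMSO and 28.5% in MAK683. The potassium channel genes KCNJ10 (1.42), KCNA1 (1.38) and KCNA4 (1.06) were highest in MAK683, and KCNJ2 (-1.61) and the NMDA receptor gene GRIN2C (-1.28) were lowest. H3K27me3 over input was lower in MAK683 by 0.81 at KCNA4 and by 0.77 at KCNJ2. At KCNA4 the H3K27me3 counts were 278 and 160 over 66 and 112 input counts, and the higher input count also lowered the ratio. KCNJ2 had 85 and 41 H3K27me3 counts and was also lower in H3K4me3 by more than 1.5-fold, with -0.65. None was higher by 1.5-fold. In H3K27me3, 9.12% of all genes were higher and 4.41% lower by as much.

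Of 15 cAMP phosphodiesterases, 9 were above input in each treatment, with medians of 0.031 and 0.061. Of all genes, 27.3% were above input in DMSO and 28.5% in MAK683. PDE1B (1.26), PDE7B (0.64) and PDE1C (0.59) were highest in MAK683, PDE4D at 0.53 would have followed them, and PDE4A (-1.06), PDE4C (-0.84) and PDE8A (-0.81) were lowest. PDE1B was the 1 gene past 1.5-fold between treatments, going from 1.91 to 1.26. Of all genes, 4.41% were lower and 9.12% higher by as much.

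Last, genes with the most similar values were sought over 4 measures, the log2 ratios to input of 2 modifications in 2 treatments, among 6681 autosomal protein-coding genes with 1000 or more summed input counts. Nearest to the median of the members by Euclidean distance were KLF12 (0.045), DNAH3 (0.062), HECW1 (0.069), FAM184B (0.081) and DNAH11 (0.081), which span 152 to 453 kb and are shorter than any member. Among the members, NRXN3 and PDE4D were closest to each other, at 0.18, and DAB1 was closest to NRXN3, at 0.23. CNTNAP2 and CSMD1 were each closest to the other, at 0.39, as were DLG2 and PTPRD, at 0.64. LSAMP had the largest distance to its closest member, 0.79 to CSMD1.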

How the data were processed

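The members and the gene lists were chosen with earlier results of these data known. Per the labels, G401 cells received DMSO or 3 µM MAK683 for 3 days, and each treatment gave 1 library per antibody. The authors trimmed reads with Trim Galore 0.4.4, aligned them to hg19 with Bowtie2, processed them with Picard 2.23.6 and deposited raw featureCounts counts for 56638 genes. The annotation used for counting is not given in the sources used here. The Drosophila spike-in factors were not used here, so levels between libraries are relative.

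Counts were converted to CPM on library totals (13308099 to 21281877 counts) and divided by input of the same treatment with a pseudocount of 0.05 CPM. Intervals (95%) take Poisson counting error, shares the exact Clopper-Pearson interval, and 3 counts, the lowest level read as present, equal 0.141 to 0.225 CPM by library. Gene spans came from GENCODE release 44 on GRCh37, matched by symbol (33872) or an older symbol (1839), 63.1% of genes. Introns are included. Named genes were the members, the 3 highest and 3 lowest of each list by H3K27me3 over input in MAK683, genes past 1.5-fold (at most 5 per list and direction), flanking genes and genes with the nearest pattern, and others are marked in the text. Some of the genes that this rule names are not reported here. On simulated Poisson counts of 21263 genes for the H3K27me3 difference, 196 of 200 genes changed 2-fold were recovered past 1.5-fold. Of 15661 unchanged genes with at least 100 counts, 101 also passed it. Intervals held the known ratio at 94.9% of 15808 genes. Poisson draws give such coverage by construction, so it does not check variation between libraries. Alternatives were other scalings, pseudocounts, filters, thresholds and pooled inputs. Python 3.11.15, numpy 2.4.6, pandas 2.3.3, scipy 1.17.1 and matplotlib 3.10.9 were used.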

Additional observations from a re-analysis of the deposited data

How the results depend on the processing

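No paired analysis was possible because each group held 1 library. With median-of-ratios scaling, the members had median H3K27me3 ratios of 0.88 (DMSO) and 0.63 (MAK683), a median H3K4me3 ratio of -0.80 in DMSO and a median H3K27me3 difference of -0.25. CSMD1 (0.19) and PTPRD (0.24) in DMSO and CNTNAP2 (0.18), CSMD1 (0.33) and PTPRD (0.16) in MAK683 turned to above input in H3K27me3. The H3K27me3 difference turned to lower at DLG2 (-0.0040) and PTPRD (-0.084), and the H3K4me3 difference in the median (-0.015), NRXN3 (-0.039), PDE4D (-0.035), DLG2 (-0.015) and PTPRD (-0.0078). In the counts as deposited, the H3K27me3 difference was -0.64 in the median, -0.0025 at CNTNAP2, -0.15 at CSMD1, -0.40 at DLG2 and -0.43 at PTPRD, and the H3K4me3 difference -0.036 in the median, at NRXN3 and at PDE4D, -0.066 at DLG2 and -0.0088 at PTPRD. Another scaling adds the same value to every gene of a library, while the counts as deposited were also read without input.

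Autosome totals gave medians of -0.98 and -0.83 for H3K4me3 in DMSO and MAK683. Pooled inputs gave -0.94 for H3K4me3 in DMSO and -0.11 for the H3K27me3 difference, as did H3K27me3 CPM alone. At 2-fold, no member (0) was above or below input in H3K27me3 in either treatment, and 3 in DMSO and 1 in MAK683 were below it in H3K4me3. At a threshold below 1.5-fold, 4 were below input in H3K27me3 in DMSO and 2 were higher in MAK683. With at least 1000 input counts, 16.1% of genes in DMSO and 13.9% in MAK683 were above input in H3K4me3 by 1.5-fold, and 3.40% were higher and 0.106% lower in the H3K27me3 difference and 0.804% and 0.0473% in H3K4me3. Without a filter these shares were 17.6%, 13.8%, 14.8% and 12.5%. Per kb of whole span, the median input of the members was 11.0 in DMSO and 12.5 in MAK683. With a pseudocount of 1 CPM, all 54 values of members moved by less than the spread used to judge them. Depth does not limit the members, which had at least 9963 counts in each library, but short genes in the lists had under 100.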
